A study of Mus musculus with 32 samples.

Results

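Genes that sense double-stranded RNA or pass its signal on were followed across RNA-seq libraries of mouse lung endothelial cells (ECs) with or without siRNA against Dnmt1. The 10 members were Ifih1, Ddx58, Dhx58, Tlr3, Mavs, Ticam1, Eif2ak2, Adar, Tbk1 and Ikbke, taken as the rows of the merged count table that carry these symbols, 10 of 54429 symbols in all. Each symbol belonged to 1 gene identifier, and all 10 passed the filter on low counts. The cells were Veravec, a mouse lung EC line, so that every group is the same line and no animal stands behind a replicate number. They were transfected on 2 occasions with a control siRNA (si-control) or with siRNA against Dnmt1 (si-dnmt), and were then left without cytokine or treated for 16 h with 10 ng/mL of TNFα (TNF), with 1000 U/mL of IFNγ (IFN) or with both (TNF + IFN). The methods list a pair of Dnmt1 siRNA sequences, and which of them, or whether both, went into a given library is not given in the sources used here. This gave 8 groups of 4 libraries, 32 in all, which the study names biological replicates. The labels do not say whether the replicates were separate cultures on separate days, so p-values measure the spread between these libraries. The title of 1 library, replicate 1 of si-dnmt + TNF, spells the siRNA as si-dnmtl, and that library is taken here as si-dnmt + TNF.

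As background, cells detect double-stranded RNA, which arises in viral infection and from paired transcripts of the genome's own repeats, by receptors in different compartments. In the cytosol, MDA5 (Ifih1) binds long duplexes and RIG-I (Ddx58) binds short duplexes with a phosphorylated end, while LGP2 (Dhx58) lacks the signalling domains and tunes the others. These helicases signal through MAVS on mitochondria, whereas TLR3 in endosomes signals through TRIF (Ticam1). Both routes reach the kinases TBK1 and IKKε (Ikbke), which phosphorylate IRF3 and IRF7 and so turn on interferon genes. PKR (Eif2ak2) binds the same RNA and halts translation, and ADAR1 (Adar) edits adenosines in it and thereby hides self RNA from the sensors. Several of these genes are themselves interferon targets. DNA methylation, which DNMT1 copies to the new strand at replication, keeps many repeats silent, and cells treated with inhibitors of methylation can transcribe such repeats and set off this pathway. Transcripts of repeats were not analysed here.

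Promoter sequences from RefSeq (GRCm38.p6, 250 bases before to 50 bases after the annotated start) were found for 9 of the 10 members, the exception being Dhx58. An interferon-stimulated response element (ISRE, searched as GAAANNGAAA on both strands) lay in the promoters of Ifih1, Ddx58 and Eif2ak2, and in 3.44% of all 32851 promoters of this length. An NF-kB consensus match lay in the Tlr3 promoter and in 4.51% of all promoters. An interferon-gamma activated sequence (GAS, TTCNNNGAA, which reads alike on both strands) lay in the Eif2ak2 promoter, starting 178 bases before the start, and in 1 of the 3 Adar promoters, against 8.30% of all promoters. No match to these 3 patterns was found in the windows of Mavs, Ticam1, Tbk1 or Ikbke. The matches are letters in a window and do not show binding. Variants that depart from these patterns in letters or spacing were not searched, so a window without a match may still hold such an element. The promoters of the members with an ISRE or NF-kB match are printed, with that of Ikbke, the member with the highest fold change after Dnmt1 siRNA, for comparison. All 5 lie on the minus strand and are given 5′ to 3′ in the direction of the gene, and capitals mark the ISRE or NF-kB match.
Ifih1 at chr2:62646206-62646505, with the ISRE GAAACAGAAA beginning 32 bases after the start: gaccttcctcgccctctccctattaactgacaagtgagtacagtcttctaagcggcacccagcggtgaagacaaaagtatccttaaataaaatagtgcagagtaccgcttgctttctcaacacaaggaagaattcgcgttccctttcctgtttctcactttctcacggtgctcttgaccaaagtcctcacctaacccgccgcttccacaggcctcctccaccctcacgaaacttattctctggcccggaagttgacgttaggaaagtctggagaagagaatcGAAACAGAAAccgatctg
Ddx58 at chr4:40239776-40240075, with the ISRE on the other strand, 2 bases after the start: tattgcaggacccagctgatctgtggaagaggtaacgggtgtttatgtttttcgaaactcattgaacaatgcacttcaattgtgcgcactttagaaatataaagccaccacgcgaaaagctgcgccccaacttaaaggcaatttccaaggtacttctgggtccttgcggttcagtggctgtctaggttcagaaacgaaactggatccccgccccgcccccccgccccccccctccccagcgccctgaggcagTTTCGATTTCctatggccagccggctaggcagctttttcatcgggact
Eif2ak2 at chr17:78882523-78882822, with the ISRE GAAAACGAAA beginning 18 bases after the start: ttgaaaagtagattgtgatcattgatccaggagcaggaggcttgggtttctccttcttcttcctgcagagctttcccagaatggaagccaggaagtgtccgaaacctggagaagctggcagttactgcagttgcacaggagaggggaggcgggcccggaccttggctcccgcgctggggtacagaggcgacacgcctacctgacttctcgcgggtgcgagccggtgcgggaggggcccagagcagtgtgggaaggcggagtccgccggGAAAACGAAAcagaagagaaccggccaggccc
Tlr3 at chr8:45410331-45410630, with the NF-kB match GGGAGTTTCC beginning 211 bases before the start: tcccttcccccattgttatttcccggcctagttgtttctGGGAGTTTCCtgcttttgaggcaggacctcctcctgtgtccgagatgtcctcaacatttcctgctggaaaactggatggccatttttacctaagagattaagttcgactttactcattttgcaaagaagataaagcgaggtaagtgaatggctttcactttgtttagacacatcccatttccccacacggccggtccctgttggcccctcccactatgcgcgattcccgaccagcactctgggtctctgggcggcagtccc
Ikbke at chr1:131279514-131279813, with no match in capitals: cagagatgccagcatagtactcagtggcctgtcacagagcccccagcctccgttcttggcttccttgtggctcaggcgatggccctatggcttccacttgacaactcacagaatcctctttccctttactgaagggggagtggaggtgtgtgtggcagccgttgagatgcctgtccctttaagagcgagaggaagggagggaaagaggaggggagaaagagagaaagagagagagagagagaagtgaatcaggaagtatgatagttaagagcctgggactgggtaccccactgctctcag

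CpG dinucleotides, the substrate of DNMT1, numbered 14 in the Ifih1 promoter, 15 in that of Ddx58, 17 in that of Eif2ak2, 10 in that of Tlr3 and 4 in that of Ikbke. The median over all 32851 promoters was 7, with quartiles of 3 and 20. The highest count among the members was 37, in the promoter of Tbk1. Methylation of these promoters was not analysed here.

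Libraries held 17362546 to 33500030 counts, with a median of 20859668, and mitochondrial genes took 2.13% to 5.77% of them. The mitochondrial share moved with the siRNA, without overlap in any state, at 4.43% to 5.77% with si-control and 3.27% to 4.03% with si-dnmt at rest, 3.90% to 4.51% and 2.68% to 3.38% with TNF, 3.25% to 4.89% and 2.40% to 3.24% with IFN, and 2.73% to 3.65% and 2.13% to 2.64% with TNF + IFN. Its part in the differences between the siRNAs was not tested. Dnmt1, the target of the siRNA, lay at 86.5 to 211 CPM (counts scaled to the same total in each library) in the 16 si-control libraries and at 5.11 to 17.3 CPM in the 16 si-dnmt libraries, so the libraries bore out their labels without overlap. EC markers were present throughout, with Cdh5 at 847 to 2880 CPM and Pecam1 at 646 to 2166 CPM, although Cldn5 fell to 0.116 CPM in its lowest library. Of the 8 leukocyte markers only Cd68 passed the filter, and it lay at 49.1 to 214 CPM. Ptprc never exceeded 3 counts and Cd3e was at 0 in every library. Of the 5 epithelial markers only Krt18 passed, and Sftpc was at 0. Within each group the libraries numbered 1 and 2 lay apart from those numbered 3 and 4. In 45 of the 80 combinations of member and group both of the first pair were above both of the second, in 18 both were below, and the sets lay apart in this way for 58.4% to 67.2% of all genes tested. The labels name no batch for these sets, so counts of members called, and values of the members named for them, are also given within them.

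Dnmt1 siRNA alone, with no cytokine, was accompanied by higher levels of 6 of the 10 members and by lower levels of none. Higher were Ikbke (2.13-fold), Ifih1 (1.96-fold), Tlr3 (1.90-fold), Dhx58 (1.59-fold), Ddx58 (1.50-fold) and Adar (1.38-fold), by edgeR's quasi-likelihood test at a Benjamini-Hochberg adjusted p below 0.05. Of these the call of Dhx58 was the least firm, with overlapping libraries, a call that ended in 5 of 8 omissions of 1 library and a log2 difference of 0.05 (adjusted p = 0.76) within replicates 3 and 4. Over all 15254 genes tested, 18.5% passed in either direction and 9.58% were higher. The median log2 fold change of the 10 members was 0.53, and that of all genes was 0.00 to 2 decimals. In 7 of the 10 every si-dnmt library lay above every si-control library, which held for 11.1% of all genes. With the replicate number added to the fit as a block 8 members passed, all higher, beside 32.4% of all genes. A fit of replicates 1 and 2 alone passed 7, beside 24.1% of all genes, and within replicates 3 and 4 alone 5 passed, beside 36.2%.

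**Figure D1:**
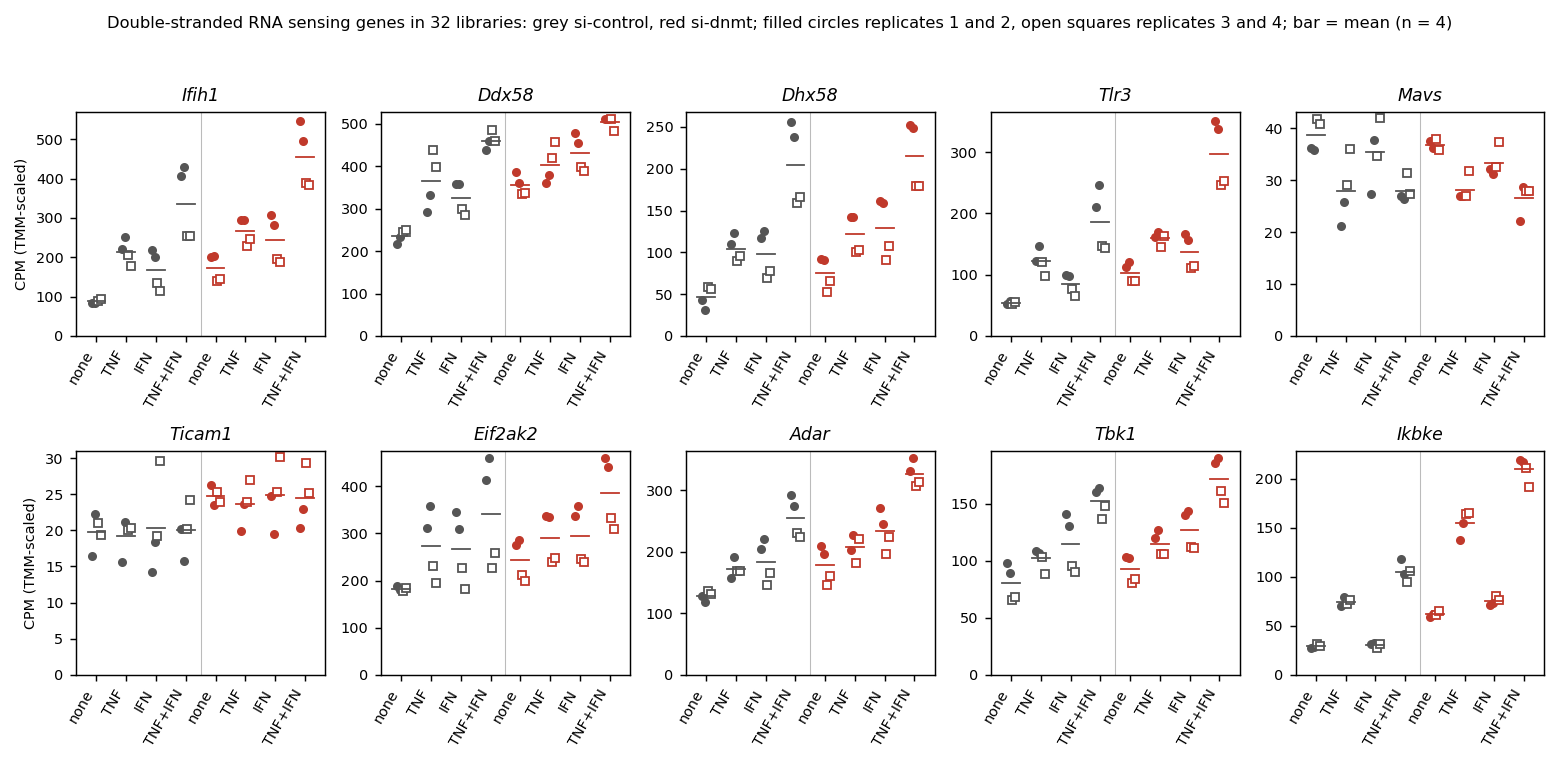
Level of each of the 10 genes in each of the 32 libraries, in CPM with TMM factors (linear axis from 0), with grey for si-control, red for si-dnmt, filled circles for replicates 1 and 2, open squares for replicates 3 and 4 and a bar for the mean of 4. The sensors and Ikbke stand highest with TNF + IFN under either siRNA, Ticam1 stays between 14.3 and 30.2 CPM, and open squares lie below filled circles in many groups.

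Ifih1 encodes MDA5, the sensor of long duplexes. At rest its levels were 84.2, 83.1, 89.9 and 94.2 CPM in the 4 si-control libraries, in the order of their numbers, and 199.9, 202, 140.5 and 145 CPM in the 4 si-dnmt libraries. Every si-dnmt library was above every si-control library, and replicates 1 and 2 of si-dnmt were above replicates 3 and 4. The log2 difference was 0.97 ± 0.21 (SE, n = 4, edgeR adjusted p = 0.0012). It was 1.27 within replicates 1 and 2 and 0.63 within replicates 3 and 4, and passed the test in each set.

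Ddx58 encodes RIG-I. Its resting levels were 216, 233, 246 and 250.5 CPM with si-control and 386, 362, 335 and 336 CPM with si-dnmt. The groups did not overlap, and the spread within each was small beside the gap. The log2 difference was 0.59 ± 0.11 (adjusted p = 2.2e-04), with 0.74 in replicates 1 and 2 and 0.44 in replicates 3 and 4.

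Dhx58 encodes LGP2. Its libraries held 42.5, 31.6, 58.6 and 56.2 CPM with si-control and 91.5, 90.9, 52.5 and 66.0 CPM with si-dnmt. Here the groups overlapped, since si-dnmt replicate 3 lay below si-control replicates 3 and 4. The log2 difference of 0.67 ± 0.24 passed the test narrowly (adjusted p = 0.046). It was 1.30 within replicates 1 and 2 and 0.05 within replicates 3 and 4 (adjusted p = 0.76), so that the higher level was seen in the first set only, and the difference between the sets was not tested. The call ended on leaving out either of the first pair of replicates of si-control, or any of replicates 1, 2 and 4 of si-dnmt, with log2 differences from 0.52 to 0.81 over all 8 omissions. It also ended with no low-count filter (adjusted p = 0.051) and with the resting groups fitted alone (adjusted p = 0.084). With the replicate number as a block the difference was 0.58 (adjusted p = 0.0094).

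Tlr3, the endosomal receptor, had 52.6, 56.6, 51.9 and 56.1 CPM with si-control and 112, 120.4, 89.1 and 90.4 CPM with si-dnmt. Each si-dnmt library exceeded each si-control library. The log2 difference was 0.93 ± 0.17 (adjusted p = 3.7e-04), and 1.10 and 0.73 within the first and second set. The call held in both sets and whichever library was left out, as it did for Ifih1, Ddx58 and Ikbke.

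Neither adaptor passed the test at rest, and no test compared them with the sensors. Mavs, which relays RIG-I and MDA5, had 36.3, 35.8, 41.8 and 40.9 CPM with si-control and 37.4, 36.3, 37.8 and 35.8 CPM with si-dnmt. These ranges overlapped, and the log2 difference was -0.07 ± 0.12 with a 95% interval of -0.32 to 0.17. Ticam1, which encodes the adaptor TRIF of TLR3, had 16.5, 22.3, 21.1 and 19.3 CPM and 26.3, 23.6, 25.4 and 24.0 CPM in the same order. Its si-dnmt libraries all lay above its si-control libraries, but the log2 difference of 0.32 ± 0.17 did not pass the test (adjusted p = 0.20, 95% interval -0.01 to 0.65).

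Ikbke, the inducible kinase IKKε, had 27.1, 27.8, 31.3 and 29.5 CPM with si-control and 58.4, 61.4, 61.0 and 65.4 CPM with si-dnmt. The groups were far apart beside their spread, and the replicate sets agreed, with log2 differences of 1.13 and 1.05. Over all 4 replicates the log2 difference was 1.09 ± 0.08 (adjusted p = 5.1e-10). Tbk1, the constitutive kinase, had 98.4, 88.9, 65.6 and 68.2 CPM and 103, 103, 80.6 and 84.3 CPM. In it the replicate sets differed more than the siRNAs did, and the log2 difference was 0.21 ± 0.14 (adjusted p = 0.34). With the replicate number as a block it was 0.22 and passed (adjusted p = 0.025).

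Eif2ak2 encodes PKR. It had 187, 180.3, 179 and 184 CPM with si-control and 275, 286, 211 and 199 CPM with si-dnmt. Although every si-dnmt library was the higher, replicates 1 and 2 of si-dnmt stood well above replicates 3 and 4, and the log2 difference of 0.41 ± 0.23 did not pass (adjusted p = 0.23). It passed with the replicate block (0.37, adjusted p = 0.01) and was 0.61 in the first set and 0.18 in the second. Adar, which encodes the editing enzyme ADAR1, had 129, 118, 136 and 132 CPM and 209.7, 196, 146 and 161 CPM. The groups did not overlap, the log2 difference was 0.47 ± 0.13 (adjusted p = 0.0092), and within the sets it was 0.72 and 0.20 (adjusted p = 0.11 in the second). Counts per gene do not separate the interferon-induced from the constitutive form of ADAR1.

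**Figure D2:**
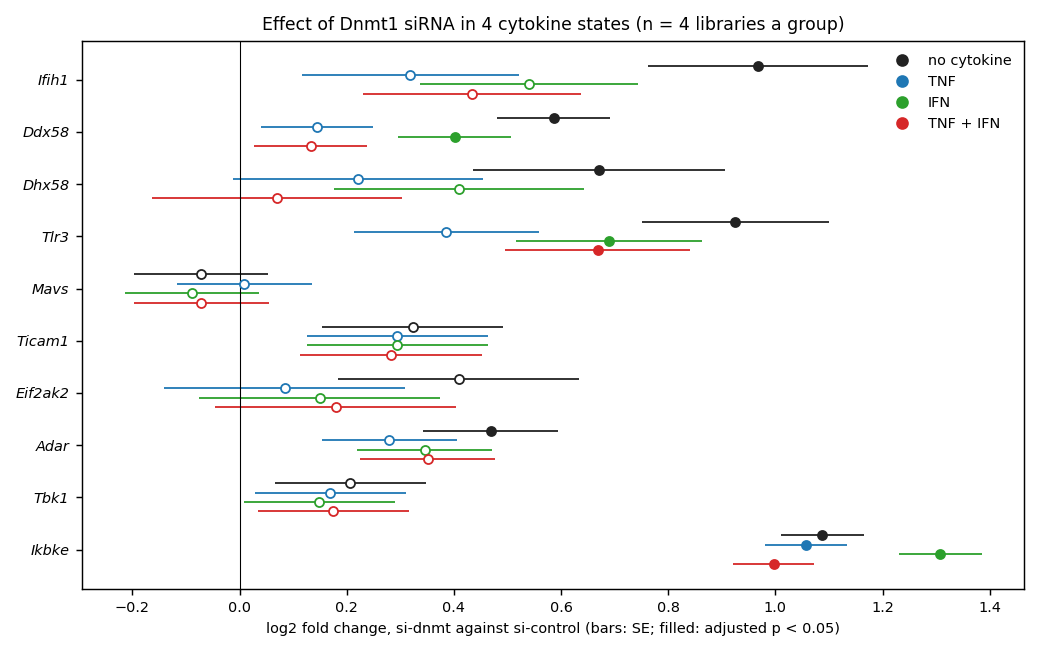
Log2 fold change of si-dnmt against si-control for each gene in each of the 4 cytokine states, as the fitted value with its SE (n = 4 libraries a group), filled where the adjusted p was below 0.05. Ikbke lies near 1 in every state, Mavs near 0, and the sensors Ifih1, Ddx58, Dhx58 and Tlr3 have their highest values with no cytokine.

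With TNF present, si-dnmt and si-control differed in 1 of the 10 members, Ikbke, against 20.0% of all genes in either direction and 10.4% higher. Ikbke had 70.5, 79.3, 71.9 and 76.0 CPM in si-control + TNF and 137, 154, 164 and 164 CPM in si-dnmt + TNF. All si-dnmt + TNF libraries were higher, as in 11.5% of all genes, with a log2 difference of 1.06 ± 0.08 (adjusted p = 2.8e-10). For the sensors the differences were 0.32 ± 0.20 for Ifih1, 0.14 ± 0.11 for Ddx58, 0.22 ± 0.23 for Dhx58 and 0.39 ± 0.17 for Tlr3, and their libraries overlapped. With the replicate block 4 members passed, beside 33.4% of all genes, the added ones being Ifih1 (adjusted p = 0.038), Tlr3 (0.0028) and Adar (0.027). Within replicates 1 and 2 alone 6 passed, beside 26.4% of all genes, namely Ikbke (0.96), Ifih1 (0.32), Adar (0.30), Tlr3 (0.29), Dhx58 (0.28) and Ddx58 (0.24). Within replicates 3 and 4 alone 4 passed, beside 36.0%, namely Ikbke (1.15), Tlr3 (0.50), Ifih1 (0.32) and Adar (0.25).

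With IFN, 3 of the 10 members were higher in si-dnmt cells, beside 20.3% of all genes in either direction and 10.8% higher, namely Ikbke, Tlr3 and Ddx58. Ikbke stood at 30.8, 31.9, 27.6 and 30.8 CPM in si-control + IFN and at 70.6, 72.6, 80.1 and 76.3 CPM in si-dnmt + IFN, a 2.47-fold difference and the highest of the 4 states. Tlr3 was at 99.9, 97.9, 77.1 and 65.7 CPM and 167, 157, 111 and 115 CPM (0.69 ± 0.17 on the log2 scale, adjusted p = 0.0052). Ddx58 was at 359, 358, 299.5 and 286 CPM and 479.5, 455, 398 and 388 CPM (0.40 ± 0.11, adjusted p = 0.007). In all 3 genes every si-dnmt + IFN library was above every si-control + IFN library, as in 11.9% of all genes. Ifih1 (0.54 ± 0.20, adjusted p = 0.06) and Adar (0.35 ± 0.13, adjusted p = 0.051) fell just short. Both passed with the replicate block (adjusted p = 6.3e-04 and 0.0051), which called 5 members and 34.5% of all genes. Both also passed with DESeq2 (adjusted p = 0.044 and 0.037), beside 22.4% of all genes, and when si-control + IFN replicate 1 or 2 was left out. Of the sets, replicates 1 and 2 alone gave 5 calls, beside 25.5% of all genes, namely Ikbke (1.18), Tlr3 (0.70), Ifih1 (0.47), Dhx58 (0.38) and Ddx58 (0.37). Replicates 3 and 4 alone gave 8, all but Mavs and Ticam1, beside 38.2%, with 1.42 for Ikbke, 0.66 for Tlr3, 0.63 for Ifih1 and 0.43 for Ddx58.

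With TNF + IFN, 2 of the 10 members were higher in si-dnmt cells, Ikbke and Tlr3, beside 17.7% of all genes in either direction and 8.97% higher. Ikbke had 118, 103, 94.0 and 105 CPM in si-control + TNF + IFN and 219, 217, 211 and 191 CPM in si-dnmt + TNF + IFN (log2 difference 1.00 ± 0.08, adjusted p = 3.1e-09). Tlr3 had 211, 246, 146 and 143 CPM and 350.1, 338, 246 and 253 CPM (log2 difference 0.67 ± 0.17, adjusted p = 0.0069). The Ikbke groups did not overlap, as in 11.0% of all genes that were higher, while for Tlr3 replicate 2 of si-control + TNF + IFN lay just above the lowest si-dnmt + TNF + IFN library. Dhx58 was at 205 ± 49.6 and 215 ± 41.2 CPM (mean ± SD, n = 4), a log2 difference of 0.07 ± 0.23. Adar had every si-dnmt + TNF + IFN library above every si-control + TNF + IFN library but did not pass (0.35 ± 0.13, adjusted p = 0.052). The block added Ifih1 (adjusted p = 0.0039) and Adar (adjusted p = 0.0051), for 4 members beside 30.8% of all genes. The first set alone gave 3 calls, beside 23.9% of all genes, namely Ikbke (0.98), Tlr3 (0.59) and Ifih1 (0.32). The second set alone gave 5, beside 35.9%, namely Ikbke (1.01), Tlr3 (0.79), Ifih1 (0.61), Adar (0.45) and Eif2ak2 (0.40). Adar also passed with RLE size factors, with DESeq2 and with these groups fitted alone (adjusted p = 0.043, 0.03 and 0.046).

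Mavs, Ticam1, Tbk1 and Eif2ak2 passed the test between the siRNAs in none of the 4 states, although Tbk1 and Eif2ak2 did at rest under the block. Within replicates 3 and 4 alone Tbk1 passed at rest (0.30) and with IFN (0.27), and Eif2ak2 with IFN (0.25) and with TNF + IFN (0.40), while within replicates 1 and 2 alone Eif2ak2 passed at rest (0.61). Mavs and Ticam1 passed in no state within either set. The Mavs differences ran from -0.09 to 0.01, those of Ticam1 from 0.28 to 0.32, those of Tbk1 from 0.15 to 0.21 and those of Eif2ak2 from 0.08 to 0.41. Their 95% intervals reached a log2 difference of 0.65 for Ticam1 and of 0.85 for Eif2ak2 at rest, so a change of that size was not shut out by these libraries.

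**Figure D3:**
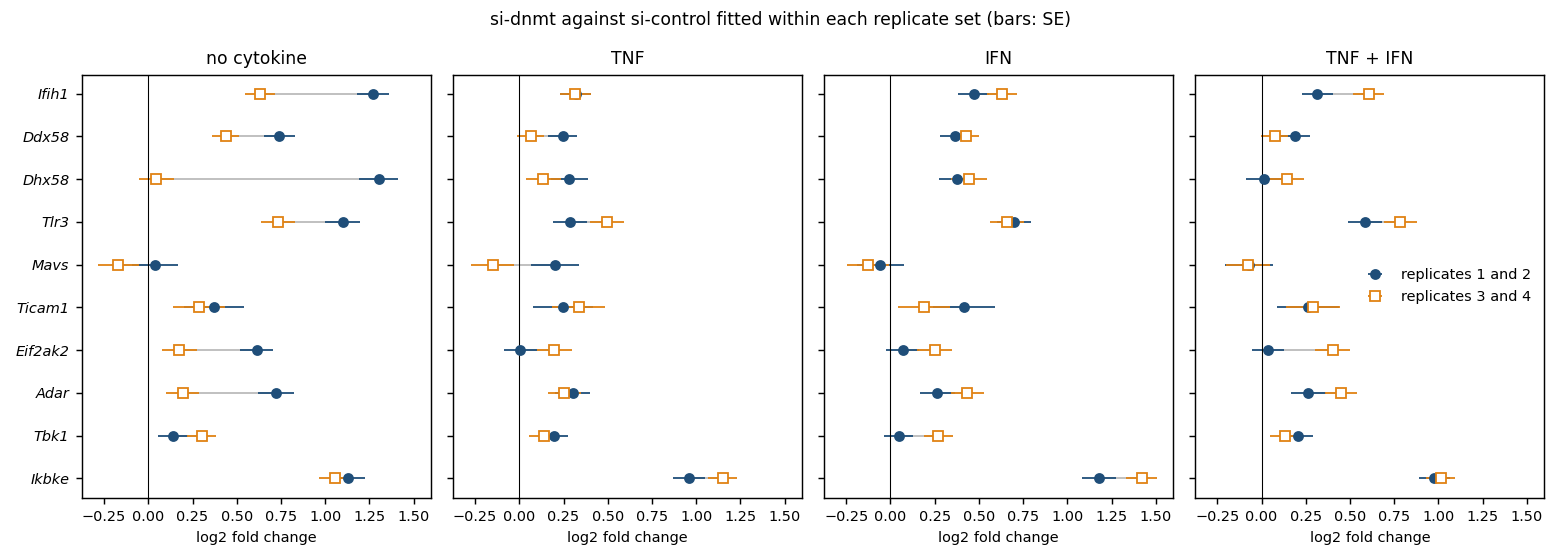
Log2 fold change of si-dnmt against si-control fitted within replicates 1 and 2 (filled circles) and within replicates 3 and 4 (open squares), with SE, for each gene and cytokine state. At rest Dhx58 was at 1.30 in the first set and 0.05 in the second, while Ikbke was at 1.13 and 1.05.

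The cytokines alone raised most members in si-control cells. TNF raised 6 of the 10, Ikbke, Ifih1, Tlr3, Dhx58, Ddx58 and Adar, and lowered Mavs, with 30.8% of all genes called in either direction. The log2 changes were 1.36 ± 0.08 for Ikbke, 1.28 ± 0.21 for Ifih1, 1.17 ± 0.18 for Tlr3 and -0.47 ± 0.13 for Mavs (adjusted p = 5.3e-13, 2.4e-05, 8.8e-06 and 0.0052). With the groups of that comparison fitted alone the call of Mavs was lost (-0.47, adjusted p = 0.056) and Eif2ak2 passed (0.58, adjusted p = 0.044), and Eif2ak2 passed as well with RLE size factors and with DESeq2 (adjusted p = 0.049 and 0.036). IFN raised 6 as well, beside 14.5% of all genes. These were Dhx58 (1.05 ± 0.24), Ifih1 (0.93 ± 0.21), Tlr3 (0.65 ± 0.17), Adar (0.51 ± 0.13), Tbk1 (0.51 ± 0.14) and Ddx58 (0.46 ± 0.11), of which Tbk1 was lost (0.39 at the lowest) on leaving out replicate 3 or 4 at rest, or 1 or 2 with IFN, and with the groups of the comparison fitted alone (0.50, adjusted p = 0.15). With the replicate block Tbk1 also passed with TNF (adjusted p = 2.2e-04) and Eif2ak2 with TNF and with IFN (adjusted p = 3.1e-04 and 0.0014). Ikbke hardly moved with IFN (0.06 ± 0.08, adjusted p = 0.68), at 30.8, 31.9, 27.6 and 30.8 CPM beside 27.1, 27.8, 31.3 and 29.5 CPM at rest. TNF + IFN raised 8 members and lowered Mavs, beside 45.2% of all genes, with the log2 change reaching 2.12 ± 0.24 for Dhx58, 1.93 ± 0.21 for Ifih1 and 1.86 ± 0.08 for Ikbke. In that comparison all 8 raised members had every TNF + IFN library above every resting one, as did 20.9% of all genes, and Mavs had every one below, as did 18.6% of all genes. Within replicates 1 and 2 alone TNF, IFN and TNF + IFN changed 9, 7 and 9 members, beside 37.3%, 25.5% and 49.2% of all genes. Within replicates 3 and 4 alone they changed 8, 5 and 9, beside 44.3%, 21.8% and 51.3%, with the call of Adar with IFN lost (0.21).

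In si-dnmt cells the same treatments were compared with resting si-dnmt libraries. TNF raised 4, Ikbke (1.33 ± 0.08), Dhx58 (0.70 ± 0.23), Tlr3 (0.63 ± 0.17) and Ifih1 (0.63 ± 0.20), and lowered Mavs (-0.39 ± 0.13), beside 21.0% of all genes. The calls of Ifih1 and Dhx58 were lost on leaving out replicate 3 or 4 at rest, or 1 or 2 with TNF (lowest log2 changes 0.55 and 0.56), and that of Mavs on leaving out replicate 1 or 3 at rest, or 1, 2 or 3 with TNF (nearest to 0 at -0.37) and with no low-count filter (adjusted p = 0.066). The number called then fell to as few as 2. IFN raised 4, Dhx58 (0.78 ± 0.23), Tbk1 (0.45 ± 0.14), Adar (0.39 ± 0.13) and Ikbke (0.28 ± 0.08), beside 9.01% of all genes. This count fell to 1 without si-dnmt replicate 3 or 4 or without si-dnmt + IFN replicate 1 or 2. With the replicate block Tbk1 also passed with TNF (adjusted p = 0.0014), and Ifih1 and Tlr3 with IFN (0.0029 and 0.0041). Of the calls with IFN, that of Ikbke was lost without si-dnmt replicate 1 or si-dnmt + IFN replicate 3 (0.25 at the lowest). The IFN calls of Tbk1 and Adar were also lost with RLE size factors, those of Tbk1, Adar and Ikbke with no low-count filter, that of Adar with DESeq2 and those of Dhx58 and Adar with the groups of the comparison fitted alone. TNF + IFN again raised 8 and lowered Mavs, beside 40.2% of all genes, with Eif2ak2 lost (0.57 at the lowest) on leaving out replicate 3 or 4 at rest, or 1 or 2 with TNF + IFN. Ikbke changed by 1.77 ± 0.08 there, Tlr3 by 1.53 ± 0.18, Dhx58 by 1.52 ± 0.24 and Ifih1 by 1.40 ± 0.21. The treatments, in the same order, changed 7, 8 and 9 members within replicates 1 and 2 alone, beside 35.4%, 19.5% and 47.6% of all genes, and within replicates 3 and 4 alone 8, 7 and 9, beside 24.9%, 16.0% and 44.7%.

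**Figure D4:**
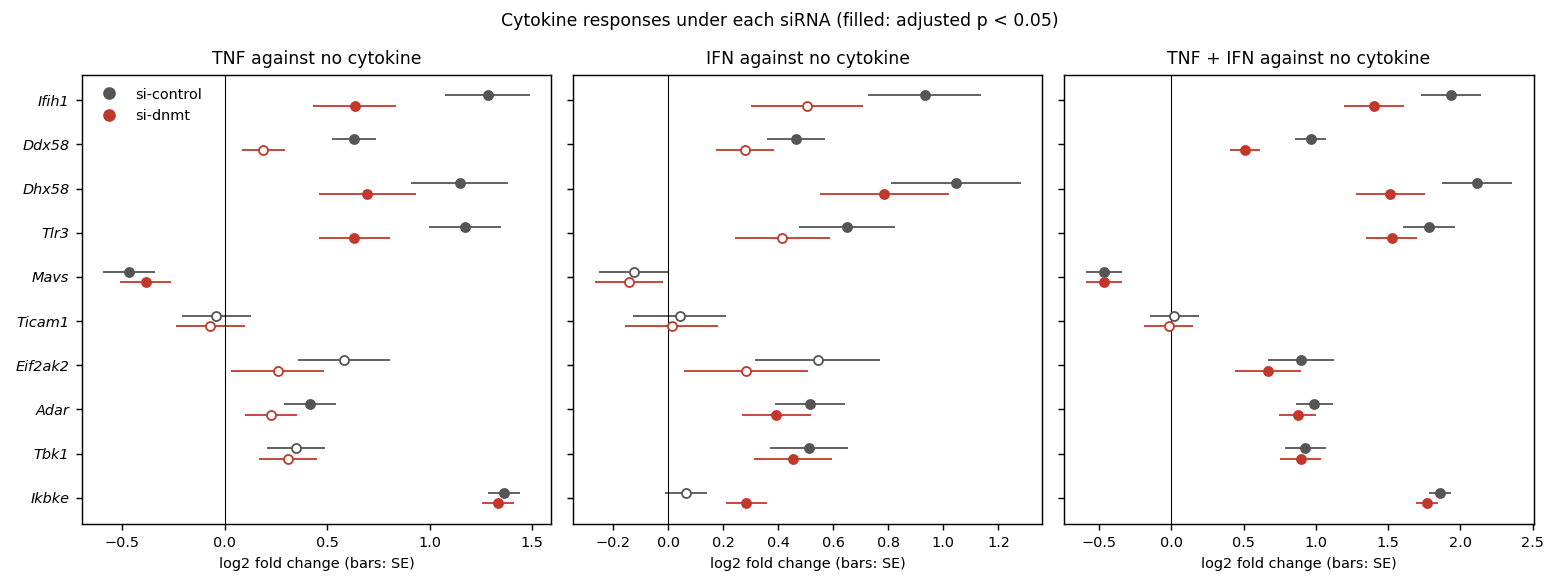
Log2 fold change of each cytokine treatment against no cytokine, in si-control (grey) and si-dnmt (red) cells, with SE, filled where the adjusted p was below 0.05. Ikbke changed by 1.36 and 1.33 with TNF but by 0.06 and 0.28 with IFN, and Mavs fell by 0.47 under either siRNA with TNF + IFN.

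Whether the siRNA effect differed between states was tested as an interaction. By edgeR, 0 of the 10 members passed for TNF, IFN or TNF + IFN, as did 0.0328%, 0.0459% and 0.531% of all genes, and DESeq2 called 0 members as well, beside 0.650%, 0.254% and 1.47% of the genes it tested. At an unadjusted p below 0.05 there were 3 members for TNF, 0 for IFN and 1 for TNF + IFN, beside 6.63%, 2.65% and 9.04% of all genes. The 3 for TNF were Ddx58 (-0.44 ± 0.15, adjusted p = 0.47), Ifih1 (-0.65 ± 0.29, adjusted p = 0.68) and Tlr3 (-0.54 ± 0.24, adjusted p = 0.70), and the 1 for TNF + IFN was Ddx58 (-0.45 ± 0.15, adjusted p = 0.21). For each cytokine 9 of the 10 estimates were below 0, which describes 1 set of resting libraries shared by the 3 comparisons. Within replicates 1 and 2 the interaction passed in 5, 3 and 5 members, all below 0, beside 1.98%, 1.80% and 4.95% of all genes. Within replicates 3 and 4 it passed in 1, 0 and 1, which was Ddx58 each time, beside 7.97%, 0.990% and 11.8% of all genes. Dhx58 and TNF + IFN was the widest case, at -1.29 in the first set and 0.10 in the second. The p-values within a set rest on 2 libraries a group, which lay closer to each other than to the other set. The Ikbke interactions were -0.03 ± 0.11 with TNF, 0.22 ± 0.11 with IFN and -0.09 ± 0.11 with TNF + IFN.

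Ordered by mean level over the 8 groups, 8 of the 10 members were lowest in si-control cells at rest and highest in si-dnmt + TNF + IFN. The share of all genes with this order, or with steps of it apart, was not computed. The counts therefore describe the members and do not set them apart from other genes. The ratio of highest to lowest group was 7.24 for Ikbke, 5.47 for Tlr3, 5.17 for Ifih1, 4.55 for Dhx58, 2.53 for Adar, 2.14 for Tbk1 and Ddx58 and 2.11 for Eif2ak2. Mavs ran the other way, highest in resting si-control cells and lowest in si-dnmt + TNF + IFN, with a ratio of 1.45. Ticam1 had a ratio of 1.30, and its range overlapped at every step of the order. For most members the ranges of neighbours in the order overlapped, in 7 of 7 steps for Dhx58, Mavs, Ticam1 and Tbk1 and in 6 of 7 for Ifih1, Ddx58, Tlr3 and Eif2ak2, where only resting si-control stood apart from the next group. Adar also had TNF + IFN under the 2 siRNAs apart. Ikbke was the most graded, with 5 of 7 steps apart. Its order ran from si-control and si-control + IFN, which overlapped, through si-dnmt to si-control + TNF and si-dnmt + IFN, which overlapped, and on to si-control + TNF + IFN, si-dnmt + TNF and si-dnmt + TNF + IFN.

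Levels of different members can be compared only per length. In resting si-control cells, dividing the CPM by the merged exon length (GENCODE M21, GRCm38) gave 35.7 CPM per kb for Eif2ak2 and 33.5 for Ddx58. Tbk1 followed at 20.5, Adar at 15.8, Dhx58 at 14.4, Mavs at 11.6, Ifih1 at 10.8 and Tlr3 at 10.4 CPM per kb, with Ticam1 at 6.62 and Ikbke lowest at 3.21. The merged length joins all annotated exons of a gene, 9018 bases for Ikbke and 2992 for Ticam1, whichever transcripts the cells made. The order, with Ikbke lowest, depends on that length, and transcript lengths were not tried. In si-dnmt + TNF + IFN Ikbke had reached 23.2 CPM per kb, above Mavs at 7.96 and Ticam1 at 8.17. Merged exons overlap those of an antisense gene for Dhx58, Tlr3, Eif2ak2, Adar and Ikbke, and since the strand setting of the counting is not given in the sources used here, reads of such pairs cannot be told apart.

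Across the 32 libraries the 8 members other than Mavs and Ticam1 moved together, with Pearson's r of log2 CPM from 0.59 (Eif2ak2 and Ikbke) to 0.98 (Ifih1 and Tlr3) over 28 pairs. Against these 8, r ran from -0.75 (Ifih1) to -0.51 (Ddx58) for Mavs. For Ticam1 it ran from -0.22 (Eif2ak2) to 0.32 (Ikbke). These values describe libraries that share cytokine, siRNA and replicate set. The gene most like Ifih1 was Ddx60 (r = 0.98), a helicase of the same superfamily, and after it Tlr3. Dhx58 was most like Mx1 (0.98), an antiviral GTPase, Adar most like Znfx1 (0.98), an RNA helicase, and Tlr3 after Ifih1 like Rsad2 (0.97), the antiviral enzyme viperin. Ikbke was most like Csf1 (0.98), the macrophage growth factor. Ddx58 (Ankfy1, 0.96), Tbk1 (Slfn10-ps, 0.96) and Eif2ak2 (Gm6548, 0.96) had looser neighbours, and those of Mavs (Ech1, 0.90) and Ticam1 (Prrc2a, 0.85) were the loosest.

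The rest of the pathway was read from lists, for which the median of all genes tested lay within 0.01 of 0 in each state. At rest and with TNF, IFN and TNF + IFN, 18.5%, 20.0%, 20.3% and 17.7% of all genes were called in either direction. Called higher were 9.58%, 10.4%, 10.8% and 8.97%, and these shares stand beside the counts of every list that follows. Among the 21 signalling proteins and transcription factors downstream, 7 were higher and 1 lower with si-dnmt at rest, 5 and 0 with TNF, 7 and 0 with IFN, and 6 and 1 with TNF + IFN, with medians of 0.22, 0.09, 0.24 and 0.11. Irf3, the factor that TBK1 activates first, had 28.8, 23.4, 24.3 and 21.0 CPM with si-control and 26.4, 30.1, 25.2 and 26.4 CPM with si-dnmt. These overlapped (0.15 ± 0.11), and Irf3 passed the test only with TNF (0.38 ± 0.11, adjusted p = 0.014), a call lost without si-control + TNF replicate 4 (0.32), and under the replicate block also with TNF + IFN (0.30, adjusted p = 0.012). Irf7, the interferon-induced factor, had 112, 70.1, 124 and 111 CPM and 400.0, 383, 161 and 198 CPM at rest, a log2 difference of 1.45 ± 0.30 (adjusted p = 9.4e-04). Replicates 1 and 2 of si-dnmt stood far above replicates 3 and 4, although all 4 lay above the si-control libraries. Irf5 rose in all 4 states (2.48 ± 0.32 at rest), from the low level of 0.610, 0.265, 0.483 and 0.538 CPM, although its call with TNF was lost (lowest log2 difference 0.53) when replicate 1 or 2 of si-control + TNF, or 3 or 4 of si-dnmt + TNF, was left out. Traf3, an adaptor of the TBK1 complex, was higher in all 4 states, by 0.91 ± 0.12 with IFN, and its calls with TNF and with TNF + IFN (0.40 and 0.38) were lost without certain single libraries, at 0.34 and 0.30 at the lowest.

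The 28 regulators of RIG-I-like receptors were called in both directions, with 6 higher and 5 lower at rest and 6 and 6 with TNF, 4 and 5 with IFN and 3 and 5 with TNF + IFN, and medians of 0.09, 0.08, 0.10 and 0.05. Tnfaip3, which encodes the brake A20, was higher in all 4 states (1.22 ± 0.17 at rest and 0.72 ± 0.17 with TNF + IFN). Nlrc5 was higher at rest (1.39 ± 0.24) and with TNF, and Ddx60 at rest (1.28 ± 0.25) and with IFN. The 11 genes of 2′-5′ oligoadenylate synthetases and RNase L, another pathway started by double-stranded RNA, were called mostly higher, with 7 higher and 0 lower at rest, 5 and 1 with TNF, 7 and 0 with IFN and 4 and 0 with TNF + IFN, and medians of 1.13, 0.61, 0.61 and 0.40. Oas2 had 2.02, 1.33, 4.70 and 4.31 CPM with si-control and 29.9, 26.9, 12.5 and 14.9 CPM with si-dnmt, without overlap, and rose by 2.75 ± 0.32 (adjusted p = 6.0e-07). It was higher in the other states too, by 1.10, 1.55 and 0.90, the last being lost without TNF + IFN replicate 3 or 4 of si-control or 1 or 2 of si-dnmt (0.82 at the lowest). For this list the interaction passed in 0, 0 and 3 genes, all below 0, by edgeR, beside 0.0328%, 0.0459% and 0.531% of all genes. By DESeq2 it passed in 3, 1 and 3, beside 0.650%, 0.254% and 1.47%. Oas1g and Oas3 rose by 2.19 ± 0.33 and 2.17 ± 0.28 at rest. Reads of the near-identical Oas1 copies may have been divided between them in the counting.

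Of the 11 genes around PKR and eIF2α, 2 were higher and 2 lower at rest, 1 and 4 with TNF, 2 and 3 with IFN, and 1 and 5 with TNF + IFN, with medians of 0.11, -0.22, -0.03 and -0.16. Atf4, the factor translated when eIF2α is phosphorylated, was lower with TNF (-1.11 ± 0.20), with IFN (-0.72 ± 0.20, lost without si-dnmt + IFN replicate 3) and with TNF + IFN (-0.86 ± 0.20). Ppp1r15a and Ddit3, its targets, were higher at rest (0.51 ± 0.15 and 0.61 ± 0.21) and lower with TNF + IFN (-0.69 ± 0.15 and -0.61 ± 0.20). At rest the call of Ddit3 was lost without any 1 of 7 of the 8 libraries (0.53 at the lowest) and that of Ppp1r15a on leaving out replicate 3 of either siRNA or 4 of si-control (0.43 at the lowest), and with TNF + IFN that of Ddit3 without any 1 of 6 (-0.49 at the nearest to 0). Of the 16 other double-stranded RNA binders tested, 5 were higher and 0 lower at rest, 3 and 2 with TNF, 3 and 1 with IFN and 3 and 0 with TNF + IFN, with medians of 0.20, -0.02, 0.03 and -0.02. Zbp1, a sensor of Z-form nucleic acid that shares a domain with ADAR1, rose at rest from 3.43, 2.76, 3.87 and 2.06 CPM to 35.1, 38.2, 10.5 and 13.0 CPM (2.99 ± 0.31, adjusted p = 1.1e-07), and was at 0.06 with IFN. Sidt2, a lysosomal RNA transporter, was higher in all 4 states (0.88 to 1.12), while Adarb1, the other editing enzyme, was lower with TNF (-0.91 ± 0.31), a call that ended (-0.67 at the nearest to 0) on leaving out replicate 1 or 2 of si-control + TNF, or 3 or 4 of si-dnmt + TNF.

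The list of DNA sensing and endosomal receptor genes, which also holds enzymes that degrade nucleic acid or its second messenger, such as Trex1 and Enpp1, gave 2, 3, 3 and 2 higher of 11 tested in the 4 states, and none lower, with medians of 0.09, 0.11, 0.15 and 0.01. Aim2 was higher in all 4 (0.59 to 0.82), Ifi204 at rest (0.86 ± 0.19) and Tlr7 with TNF (1.57 ± 0.48), the last with overlapping groups and a call that ended (1.20 at the lowest) on leaving out replicate 1 or 2 of si-control + TNF or 2 of si-dnmt + TNF. Of the 15 on that list Tlr8 and Trex1 were at 0 counts in every library. Such counts alone do not show that the cells lacked either transcript, and how the counting assigned reads to these genes was not tested. Among 17 genes that keep repeats silent, 3 were higher in each state and 2, 4, 1 and 1 were lower, a count that includes Dnmt1 itself, with medians of -0.11, -0.18, -0.10 and -0.11. Dnmt3b and Dnmt3a, the methyltransferases that set new marks, rose by 1.36 ± 0.18 and 0.62 ± 0.09 at rest.

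The output of the pathway, Ifnb1, was near the limit of detection. Its levels were 0.0469, 0.0530, 0 and 0.179 CPM in resting si-control cells and 0.0890, 0.128, 0 and 0.139 CPM in resting si-dnmt cells, with 1 library at 0 in each, so no difference was detectable at this depth. With TNF it was at 0.301, 0.375, 0.0433 and 0.279 CPM and 0.503, 0.422, 0.461 and 0.463 CPM, without overlap but not past the test (adjusted p = 0.43). With TNF + IFN it reached 4.13, 3.90, 0.616 and 0.582 CPM in si-control cells and 1.97, 1.80, 1.68 and 2.42 CPM in si-dnmt cells. The si-dnmt libraries lay between the replicate sets of si-control. The log2 difference was -0.24 ± 0.57 over all 4 replicates (adjusted p = 0.83), -1.09 in replicates 1 and 2 (adjusted p = 0.04) and 1.77 in replicates 3 and 4 (adjusted p = 0.02), and the difference between the sets was not tested. No library held more than 4 counts of any interferon alpha or lambda gene on the list or of Ifne, and these were not tested. Of the 6 genes tested among 14 interferons and receptors, Ifngr1 was lower with TNF (-0.46 ± 0.11, adjusted p = 0.003) and no other call was made between the siRNAs.

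**Figure D5:**
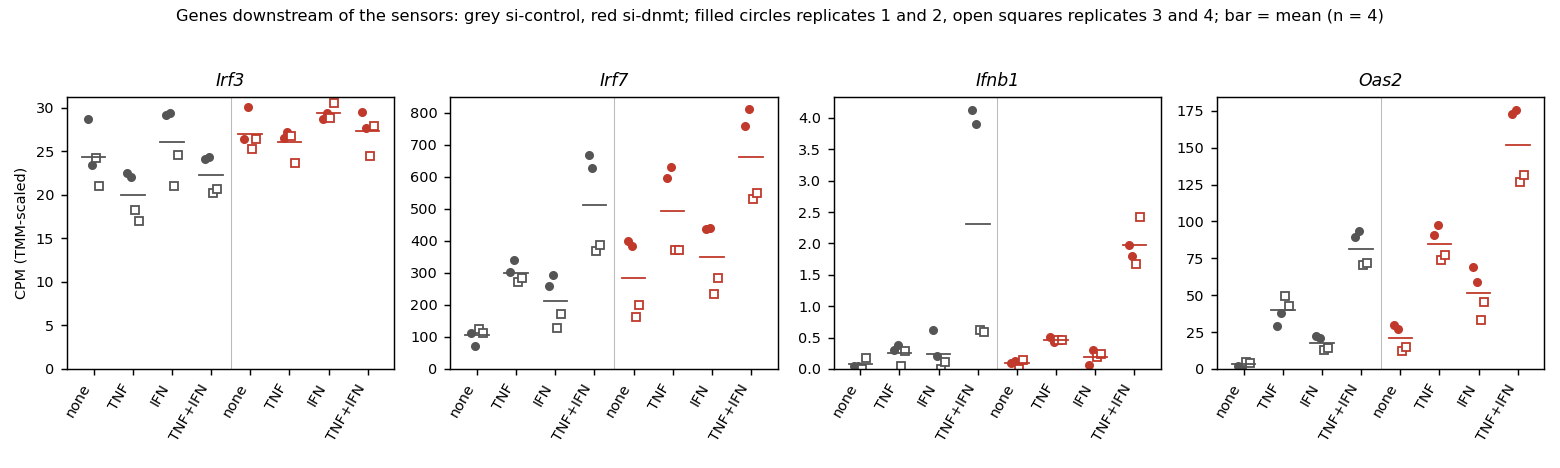
Level of Irf3, Irf7, Ifnb1 and Oas2 in each of the 32 libraries, in TMM-scaled CPM (linear axis from 0), drawn as in the plot of the 10 genes. Ifnb1 exceeded 1 CPM only with TNF + IFN, where replicates 1 and 2 of si-control stood at 4.13 and 3.90 CPM and replicates 3 and 4 at 0.616 and 0.582.

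Genes that interferon induces were read as a list of 20 for comparison. At rest 12 of the 20 were higher in si-dnmt cells and 0 lower, with a median log2 difference of 0.88, beside 9.58% of all genes higher. This resting count is from the fit of all 4 replicates, and its size within each replicate set or under the block is not given here. With TNF, IFN or TNF + IFN present 0 of 20 passed by edgeR, with medians of 0.20, 0.25 and 0.12. Of all genes 20.0%, 20.3% and 17.7% passed there in either direction. At an unadjusted p below 0.05 there were 0, 1 and 1 higher and 0, 2 and 1 lower, and DESeq2 called 0 with TNF, 1 lower with IFN and 0 with TNF + IFN. These counts turned on the replicates, since within replicates 1 and 2 there were 7, 3 and 1 higher and 0, 1 and 1 lower, where 26.4%, 25.5% and 23.9% of all genes were called, and within replicates 3 and 4 there were 6, 14 and 14 higher and 1, 2 and 2 lower, where 36.0%, 38.2% and 35.9% were called. The replicate block called 1, 3 and 1 higher and 0, 2 and 0 lower, beside 33.4%, 34.5% and 30.8% of all genes in either direction. The interaction with the cytokine passed in 0, 0 and 1 of the 20 by edgeR, beside 0.0328%, 0.0459% and 0.531% of all genes. Mx1 had 1.36, 0.795, 3.38 and 3.41 CPM in resting si-control cells and 8.59, 9.67, 7.64 and 7.58 CPM in resting si-dnmt cells (1.88 ± 0.51, adjusted p = 0.01). Rsad2 had 81.9, 66.4, 107 and 115 CPM and 308, 299, 196 and 236 CPM (1.49 ± 0.44, adjusted p = 0.019), a call lost without si-control replicate 1 or 2 (1.36 at the lowest). Cxcl10, a T cell chemokine, had 9.48, 6.57, 16.6 and 15.7 CPM and 21.7, 33.3, 33.8 and 37.4 CPM (1.38 ± 0.29), and with TNF + IFN stood at 1441 to 2046 CPM and 1643 to 2054 CPM. The groups of each gene were apart at rest, and those of Cxcl10 overlapped with TNF + IFN.

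Markers of other cell types moved in part with the siRNA. The summed level of the 5 pericyte markers was 7.69 to 26.3 CPM in resting si-control libraries and 39.3 to 182 CPM in resting si-dnmt libraries. It was 9.47 to 28.5 and 65.9 to 142 CPM with TNF, 20.8 to 69.1 and 83.4 to 228 CPM with IFN, and 18.5 to 64.2 and 58.7 to 132 CPM with TNF + IFN, the last with overlap. Most of it came from Acta2, smooth muscle actin, while Rgs5, a defining pericyte gene, had at most 1 count in any library. The 5 fibroblast markers summed to 1.64 to 2.64 CPM in resting si-control libraries and 3.78 to 7.13 CPM in resting si-dnmt libraries, without overlap. None of the 3 that passed the filter was called at rest, and 1, Col1a1, was called higher in si-dnmt cells with TNF (edgeR adjusted p = 0.049). Under either siRNA the sum of the 5 was higher with TNF than at rest, at 14.7 to 55.9 CPM in si-control + TNF and 7.87 to 31.3 CPM in si-dnmt + TNF. It was also higher than at rest with TNF + IFN, at 22.8 to 35.0 and 9.53 to 24.6 CPM. With IFN it was 1.51 to 2.56 and 2.67 to 4.41 CPM. The mean sum was lower with si-dnmt than with si-control under TNF (19.5 against 35.3 CPM) and under TNF + IFN (16.3 against 28.9 CPM). Dcn reached 53.8 CPM, while Lum never exceeded 3 counts. The 10 EC markers summed to 6178 to 9567 CPM in resting si-control libraries and 6044 to 8724 CPM in resting si-dnmt libraries. With IFN the sums were 5201 to 8227 and 5798 to 7824 CPM. They were lower than at rest with TNF, at 4153 to 5758 and 3848 to 5261 CPM, and with TNF + IFN, at 3949 to 5203 and 3602 to 5169 CPM. The part of these markers in the levels of the sensing genes was not tested, and in RNA from whole cultures more cells of a type and more RNA per cell cannot be told apart.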

How the data were processed

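RNA-seq of the 32 libraries was reduced by the authors to counts of reads per gene, deposited per library and as a merged table by symbol; the values used here are these deposited raw counts. The submitters' processing notes name cutadapt 4.9, FastQC 0.12.1, MultiQC 1.27.1, featureCounts and DESeq2. For the aligner, genome build, annotation and strand setting, the sources used here give no name. Of the 54532 gene identifiers, 54409 were found in GENCODE M21 (GRCm38), from which exon lengths and overlaps were taken.

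Counts were tested with edgeR 4.0.16 in R 4.3.3 (glmQLFit and glmQLFTest, two-sided), with 8 group means, TMM factors (0.880 to 1.09) and Benjamini-Hochberg adjustment over the 15254 genes that passed filterByExpr at a minimum count of 10, while 39278 did not. A call is an adjusted p below 0.05. Fold changes are si-dnmt over si-control, or cytokine over none, and levels are CPM with TMM factors. The SE was computed as the absolute log2 fold change divided by the square root of the F statistic of the test. Intervals are the estimate with this SE at 95%, by the normal quantile. Log2 CPM for correlations used a prior count of 2. The script was tested on simulated data with known changes. Alternatives were DESeq2 1.42.0, its size factors in edgeR, no filter, the replicate block, each replicate set, the contrast's groups alone, a fold minimum and each library left out. No files were left out, and no column stayed unmapped.

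The members and lists were chosen with earlier results of these data known. All members are named, with Dnmt1, Ifnb1, Irf3, Irf7, Cdh5 and Pecam1 and, per list, up to 3 genes with the highest absolute log2 fold change among those called in any state between the siRNAs; other marker genes were named after their values were seen. Same-numbered libraries deviated together from their group means in all 40 pairings across the contrasts (correlation 0.299 to 0.617). The closest library bore the same number in only 16 of the 40. Since replicates 1 and 2 lay apart from 3 and 4, such correlations do not show that the numbers pair the libraries. The main fit used no pairing, and the replicate block was an alternative. No 2 libraries of a group agreed within sampling noise (chi-square per degree of freedom 3.63 to 104 over 48 pairs). At these depths counting error is small for the members, and the spread between libraries sets the precision.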

Additional observations from a re-analysis of the deposited data

Results flagged for a closer look

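Of 80 combinations of member and group, 3 held a library whose gap to its nearest neighbour was above the critical share of the group's range (Dixon, 95%, for 4 libraries), where chance flags about 1 in 20. Ddx58 in si-dnmt + TNF + IFN had 1 library at 483.8 CPM, while the highest of the other 3 stood at 512.6 CPM. Mavs in si-dnmt + TNF had 1 library at 31.8 CPM, with the lowest of its group at 26.8 CPM. Mavs in si-dnmt + TNF + IFN had 1 library at 22.2 CPM, with the highest of its group at 28.7 CPM. None of these libraries changed the side of the threshold of a Ddx58 call when left out. For Mavs the difference between the siRNAs changed sign without the flagged library. With TNF it went from 0.0088 to -0.054 and with TNF + IFN from -0.071 to 0.0071, and none of these values passed the test.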

How the results depend on the processing

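The count of members called between the siRNAs at rest ran from 5 to 6 with 1 library left out and kept its size within 1.5 times under every alternative. With TNF, 1 became 4 with the replicate block, 6 within replicates 1 and 2 and 4 within replicates 3 and 4, and stayed at 1 without any 1 library. With IFN, 3 became 5 with DESeq2, 5 with the block, 5 within replicates 1 and 2 and 8 within replicates 3 and 4, and ran from 3 to 5 with 1 library left out. With TNF + IFN, 2 became 4 with the block and 5 within replicates 3 and 4, and ran from 2 to 3. For TNF in si-dnmt cells 5 became 8 within replicates 3 and 4 and ran from 2 to 5. For IFN in si-dnmt cells 4 became 2 with RLE size factors, 1 with no low-count filter, 2 with the contrast's groups fitted alone, 1 with a log2 fold change of at least 0.5 required, 8 within replicates 1 and 2 and 7 within replicates 3 and 4, and ran from 1 to 4. The interactions, at 0, became 5, 3 and 5 within replicates 1 and 2 and 1 for TNF and 1 for TNF + IFN within replicates 3 and 4. The other counts of cytokine responses stayed within 1.5 times. The share of all genes called in each replicate set stands beside these counts in the report, and was higher than in the fit of all 4 replicates. The replicate block added 15 calls of members, all given in the report, and 15 of other named genes, and took none away. The causes were not tested. Member levels without TMM factors moved by more than 1 SD in 10 of 80 groups.

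Estimates changed sign in 50 cases under other settings and in 102 with 1 library left out, over 34 results. In 1 of them a value passed the test, namely Ifnb1 between the siRNAs with TNF + IFN within replicates 3 and 4 (edgeR adjusted p = 0.020). The rest did not pass the test on either side. Within replicates 1 and 2 these were, for TNF in si-dnmt Ddx58 (-0.0081), for the siRNAs at rest Mavs (0.038), for the interaction with TNF + IFN Mavs (-0.11) and Tbk1 (0.068) and for IFN in si-control Ticam1 (-0.22). Again within replicates 1 and 2 these were, for TNF + IFN in si-control Ticam1 (-0.085), for IFN in si-dnmt Ticam1 (-0.17), for the interaction with IFN Ticam1 (0.047) and for the interaction with TNF Tbk1 (0.054). Again within replicates 1 and 2 these were, for the siRNAs with IFN Ppp1r15a (-0.021) and Irf3 (-0.027), for the siRNAs with TNF Ddit3 (0.36) and for the siRNAs with TNF + IFN Ifngr1 (0.12) and Cxcl10 (-0.035). Within replicates 3 and 4 these were, for the interaction with TNF Dhx58 (0.089), Ticam1 (0.049), Eif2ak2 (0.021), Adar (0.060) and Ikbke (0.095), for the interaction with IFN Dhx58 (0.40), Mavs (0.042), Eif2ak2 (0.074) and Adar (0.24), for the interaction with TNF + IFN Dhx58 (0.10), Tlr3 (0.051), Ticam1 (0.0022), Eif2ak2 (0.23) and Adar (0.25) and for the siRNAs with TNF Mavs (-0.15). Again within replicates 3 and 4 these were, for TNF in si-dnmt Ticam1 (0.045), for TNF + IFN in si-dnmt Ticam1 (0.14), for IFN in si-control Ikbke (-0.058) and for the siRNAs with TNF + IFN Ifi204 (-0.0077) and Ifnb1 (1.77). Again within replicates 3 and 4 these were, for the siRNAs at rest Ifngr1 (0.11) and Ifnb1 (-0.34) and for the siRNAs with IFN Ifngr1 (0.037), Ifnb1 (1.86) and Pecam1 (0.0090). With the contrast's groups fitted alone these were, for the siRNAs with TNF Mavs (-0.0057). With RLE size factors these were, for the interaction with TNF + IFN Mavs (-0.0058) and for IFN in si-dnmt Ticam1 (-0.016). With DESeq2 these were, for the interaction with TNF + IFN Mavs (-0.0045) and for IFN in si-dnmt Ticam1 (-0.016). With no low-count filter these were, for the interaction with TNF + IFN Mavs (-0.027), for the siRNAs with TNF + IFN Ifi204 (-0.0072) and for the siRNAs with IFN Pecam1 (0.0024). With the replicate block these were, for the interaction with TNF + IFN Mavs (-0.010), for IFN in si-dnmt Ticam1 (-0.0035) and for the siRNAs with TNF + IFN Ifnb1 (0.00051). With 1 library left out the ranges that held both signs were, for the siRNAs with TNF + IFN Dhx58 (-0.034 to 0.20), Mavs (-0.11 to 0.0071), Oas3 (-0.011 to 0.12), Ifi204 (-0.11 to 0.089) and Ifnb1 (-0.56 to 0.20), for the siRNAs with TNF Mavs (-0.10 to 0.15), Eif2ak2 (-0.049 to 0.24) and Cdh5 (-0.15 to 0.058), for the siRNAs with IFN Mavs (-0.19 to 0.0033), Zbp1 (-0.033 to 0.18), Ifngr1 (-0.11 to 0.0086), Ifnb1 (-0.62 to 0.86), Cdh5 (-0.070 to 0.22) and Pecam1 (-0.090 to 0.11) and for the interaction with TNF Mavs (-0.032 to 0.22), Ticam1 (-0.12 to 0.049), Tbk1 (-0.15 to 0.048) and Ikbke (-0.071 to 0.024). Further such ranges were, for the interaction with IFN Mavs (-0.12 to 0.075), Ticam1 (-0.17 to 0.21) and Tbk1 (-0.17 to 0.060), for the interaction with TNF + IFN Mavs (-0.039 to 0.079), Ticam1 (-0.14 to 0.061) and Tbk1 (-0.14 to 0.054), for TNF in si-control Ticam1 (-0.12 to 0.047) and for IFN in si-control Ticam1 (-0.20 to 0.18). Further such ranges were, for TNF + IFN in si-control Ticam1 (-0.080 to 0.12), for TNF in si-dnmt Ticam1 (-0.14 to 0.0031), for IFN in si-dnmt Ticam1 (-0.10 to 0.11) and for TNF + IFN in si-dnmt Ticam1 (-0.12 to 0.059). Further such ranges were, for the siRNAs at rest Ifngr1 (-0.073 to 0.057), Ifnb1 (-0.12 to 1.30), Cdh5 (-0.082 to 0.28) and Pecam1 (-0.19 to 0.077).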
